A study of Rattus norvegicus with 9 samples.

Results

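The 10 genes described here belong to 2 linked programs of liver fibrosis, the activation of hepatic stellate cells and the transforming growth factor beta (TGF-β) pathway. They are the 3 TGF-β ligands Tgfb1, Tgfb2 and Tgfb3, the receptor gene Pdgfrb, the cytoskeletal and contractile genes Acta2, Tagln and Des, and the matrix genes Postn, Lox and Loxl2. They were picked by gene symbol, with no cut on a measured value but with earlier results of these data known, and make up 10 of the 32883 genes in the deposited tables. All 10 had enough reads to be among the 14089 genes tested, although Lox and Postn had fewer than 10 counts in at least 1 normal library and entered the test because of their counts in diseased livers.

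RNA was sequenced from whole liver tissue of 9 male Sprague-Dawley rats, 3 in each of 3 groups. The normal group is given only as liver of normal rats. The other 6 rats had acute-on-chronic liver failure (ACLF): after bile duct ligation (BDL) for 21 days, which produces biliary cirrhosis, they received lipopolysaccharide (LPS) at 0.25 mg/kg, and 1 h later their blood was led through an extracorporeal circuit for 2 h. In the empty group the circuit held neither cells nor apheresis beads, whereas in the UTOpiA group it held a granulocyte and monocyte apheresis column followed by alginate-encapsulated hepatocyte-like organoids, made from gene-edited human induced pluripotent stem cells. ACLF livers were taken 24 h after LPS from rats that had survived to that time. Both ACLF groups therefore share BDL, LPS and the circulation, and the contrast with normal livers covers all 3 together. The rats were 8 to 11 weeks old when obtained.

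Stellate cells lie between hepatocytes and the sinusoidal endothelium and store vitamin A in the healthy liver. On injury they become myofibroblasts, which contract through smooth muscle actin, proliferate in response to platelet-derived growth factor (PDGF), and secrete collagen that lysyl oxidases cross-link. In biliary injury, fibroblasts of the portal tract also become myofibroblasts. TGF-β is the best known inducer of this change. Its ligands are secreted in latent complexes, and the activators that release them include integrins and proteases, not all acting on every ligand. The ligands signal through 2 types of receptor kinase to SMAD transcription factors.

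The promoters of Acta2 and Tgfb1 are shown because the 2 genes, a contractile protein and a ligand, differed in the size and pattern of their change across the 9 livers. RefSeq promoters (build GRCr8, 250 bases before to 50 bases after the start) were matched for 6 of the 10 genes, namely Acta2, Des, Postn, Tgfb1, Tgfb2 and Tgfb3. The 250 bases before the start are printed 5′ to 3′ with CArG-like letters in capitals, that is, CC, then 6 bases of which at most 1 is not A or T, then GG. The Acta2 stretch is chr1:241172504-241172753 on the minus strand, and that of Tgfb1 is chr1:90324062-90324311 on the plus strand.
Acta2: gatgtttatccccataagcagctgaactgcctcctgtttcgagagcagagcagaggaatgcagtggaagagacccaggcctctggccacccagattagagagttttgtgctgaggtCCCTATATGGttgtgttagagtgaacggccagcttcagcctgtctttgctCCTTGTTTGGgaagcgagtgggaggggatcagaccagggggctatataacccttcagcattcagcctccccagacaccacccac
Tgfb1: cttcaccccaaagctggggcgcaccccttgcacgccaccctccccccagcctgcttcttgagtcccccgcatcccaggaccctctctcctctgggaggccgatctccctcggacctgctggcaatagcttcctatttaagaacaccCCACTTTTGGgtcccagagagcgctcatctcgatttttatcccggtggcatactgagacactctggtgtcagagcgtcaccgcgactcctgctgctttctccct

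CArG boxes are bound by serum response factor at smooth muscle genes. The Acta2 promoter held 2 CArG-like runs, starting 134 and 84 bases upstream of the start, and the Tgfb1 promoter held 1, starting 104 bases upstream. Those of Des, Postn, Tgfb2 and Tgfb3 held none. Searched on both strands, on which a CArG run reads as itself, 9.42% of 33469 promoters of this length held at least 1 such run. The strict box, with only A and T in the centre, was in 1.64% of promoters and in none of the 6, and the looser form was searched after that. The Acta2 window also held CAGACA, a SMAD-type motif present in 21.1% of promoters, and the Des window held GGGCGG at 3 places, a motif in 33.1% of promoters. TATAAA was found in Postn, 44 bases upstream, and in 14.2% of promoters, while TGANTCA, in 7.33% of promoters, was found in none of the 6. These matches describe letters in the windows.

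Between 14241172 and 17321677 reads were counted per library. A pair of ACLF libraries stood apart from their groups: Alb, the gene of serum albumin, took 3.91% of reads in empty replicate 2 against 1.65% and 1.58% in the other empty livers, and 1.54% in UTOpiA replicate 2 against 3.59% and 3.31% in the other UTOpiA livers. In normal livers Alb took 13.3% to 14.9%. Empty replicate 2 thus lay nearest in albumin to UTOpiA replicates 1 and 3, and UTOpiA replicate 2 to empty replicates 1 and 3. Cps1, a urea cycle enzyme named after its values were seen, ran this way only in part. It was at 688, 1058 and 661 TPM in empty livers and 1068, 1177 and 1236 TPM in UTOpiA livers, in the order of the labels. Empty replicate 2 lay near UTOpiA replicate 1 here too, whereas UTOpiA replicate 2 lay between the other UTOpiA livers. Calls between the 2 ACLF groups are therefore also given without each of these libraries. No pair of libraries within a group was alike within sampling noise, with chi-square per degree of freedom from 18.8 to 227.

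Levels are given in TPM, a measure corrected for gene length, so that genes can be set side by side. Fold changes come from the counts by edgeR's quasi-likelihood test, and a gene was called when its Benjamini-Hochberg adjusted p over all 14089 genes was under 0.05 and its change exceeded 2-fold. Relative to normal livers, each of the 10 genes was called as increased in empty livers, in a contrast in which 20.7% of genes tested were called higher and 11.1% lower. The same held for UTOpiA livers against normal, where the background was 18.2% higher and 6.81% lower. Since the genes were picked with earlier results known, these counts describe them and are no independent evidence. None of the 10 was called between UTOpiA and empty, where 0.0% of all genes tested were called. On TPM, the 10 genes were higher without overlap in both ACLF groups, which was also true of 53.4% of genes tested in empty and 39.0% in UTOpiA livers. Over the 10 genes, the log2 fold change had a median of 3.46 for empty against normal and 3.75 for UTOpiA against normal, beside 0.04 and 0.05 over all genes tested. The 3 normal livers served as reference in both. In bulk tissue, a change in the number of cells of a type and a change in RNA per cell cannot be told apart.

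**Figure D1:**
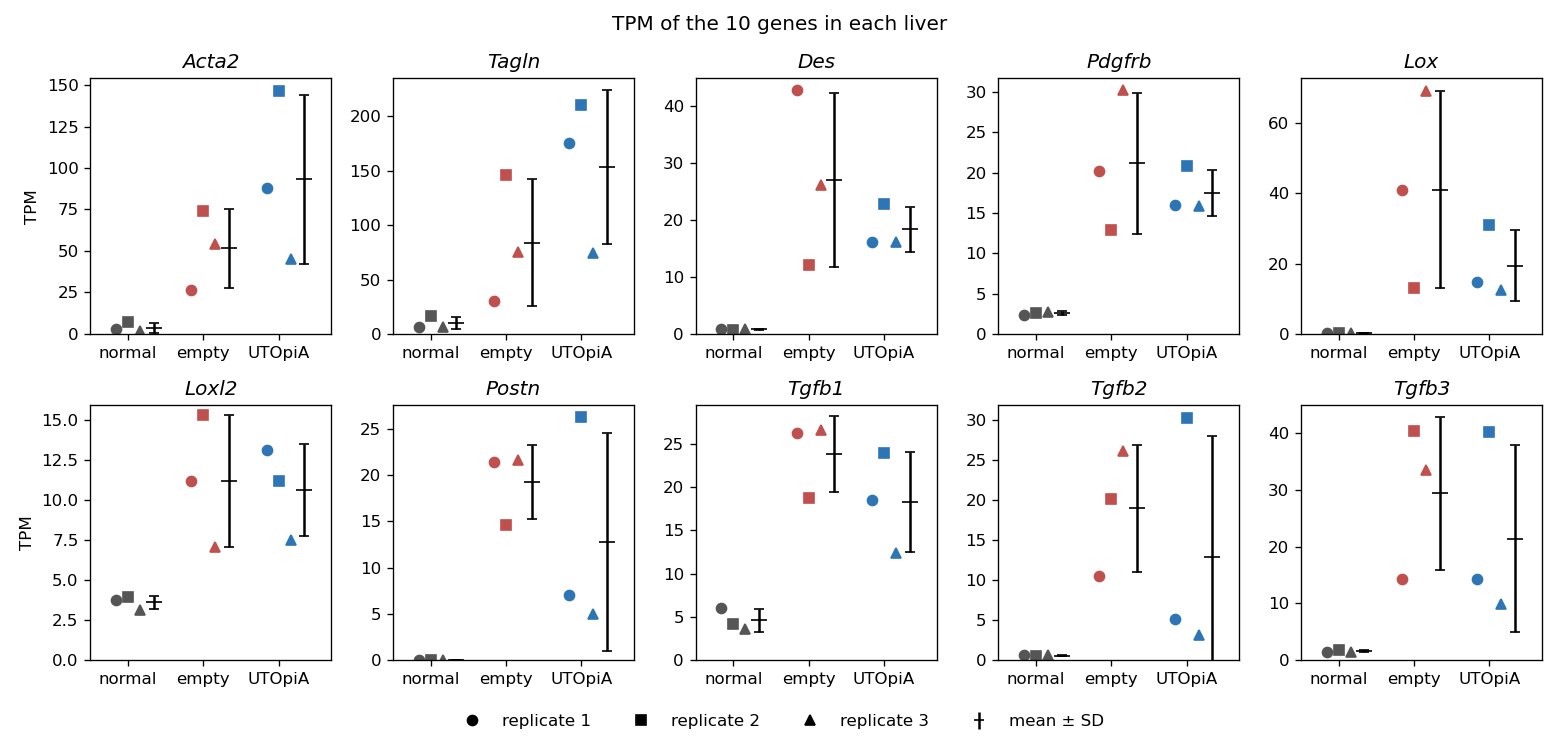
TPM (vertical axes, one scale per gene) of each of the 10 genes in each of the 9 livers, with symbols for the replicate number and a cross for the mean ± SD of the 3 livers of a group. In every panel all 6 ACLF livers lie above all 3 normal livers, whereas the empty and UTOpiA points overlap.

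Tgfb1 encodes the ligand that stellate cells, macrophages and platelets release, and it is the most studied in fibrosis (ENSRNOG00000020652, chromosome 1, 82480195 to 82497199, plus strand). Its TPM was 6.07, 4.18 and 3.58 in normal livers, 26.2, 18.7 and 26.5 in empty livers and 18.5, 23.96 and 12.4 in UTOpiA livers. Each ACLF liver thus exceeded each normal liver. The log2 fold change was 1.85 (SE 0.230) for empty against normal, with an edgeR adjusted p of 0.000304, and 1.63 (SE 0.229) for UTOpiA against normal, with an edgeR adjusted p of 0.000814. Among the 3 ligands this was the smallest increase.

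Tgfb2 (ENSRNOG00000002418, chromosome 13, 105039853 to 105141030, minus strand) encodes a ligand that depends on the coreceptor betaglycan for full receptor binding. It lay at 0.637, 0.545 and 0.618 TPM in normal livers. In the empty group it reached 10.6, 20.2 and 26.2 TPM, and in the UTOpiA group 5.21, 30.3 and 3.12 TPM. UTOpiA replicate 2 held the highest value of the 9 livers, while the other 2 UTOpiA livers fell below every empty liver and above every normal liver. Against normal, log2 fold changes were 4.44 (SE 0.783, edgeR adjusted p = 0.00211) for empty and 3.93 (SE 0.774, edgeR adjusted p = 0.00484) for UTOpiA. Without UTOpiA replicate 2 the latter was 2.58 (edgeR adjusted p = 0.00117).

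Tgfb3 (ENSRNOG00000009867, chromosome 6, 109913757 to 109935533, minus strand) encodes the ligand known from palate and lung development. It measured 1.48, 1.80 and 1.46 TPM in normal livers, 14.3, 40.3 and 33.4 in empty livers and 14.3, 40.1 and 9.82 in UTOpiA livers. Replicate 2 was highest in both ACLF groups, and the lowest ACLF liver exceeded the highest normal liver. This gave log2 fold changes of 3.68 (SE 0.503, edgeR adjusted p = 0.000597) for empty and 3.33 (SE 0.499, edgeR adjusted p = 0.00132) for UTOpiA against normal, the latter 2.73 without UTOpiA replicate 2.

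The proportions of the 3 ligands also differed between normal and ACLF livers. The summed TPM of the ligands was 8.19, 6.52 and 5.66 in normal livers, 51.1, 79.3 and 86.2 in empty livers and 37.9, 94.4 and 25.4 in UTOpiA livers. Tgfb1 made up 67.2% ± 6.08 of this sum in normal livers (SD, n = 3), 35.2% ± 14.4 in empty livers and 41.0% ± 13.5 in UTOpiA livers. The share of Tgfb2 was 9.02% ± 1.67, 25.5% ± 4.88 and 19.4% ± 11.1, and that of Tgfb3 was 23.8% ± 5.06, 39.2% ± 11.4 and 39.6% ± 2.56, in the same order. For each ligand, neither ACLF group overlapped the normal group, with an exact permutation p of 0.1, two-sided, which is the smallest that 3 livers against 3 allow. Between UTOpiA and empty the 3 shares overlapped, with exact permutation p of 0.9, 0.4 and 1.0 for Tgfb1, Tgfb2 and Tgfb3. Tgfb3 was the largest of the 3 in empty replicates 2 and 3 and in UTOpiA replicate 2, and Tgfb1 was the largest in the other 6 livers. All these shares are of TPM. In shares of counts, not corrected for gene length, the groups again did not overlap normal livers, except for Tgfb3 in the empty group. There empty replicate 1 was at 26.96%, inside the normal range of 19.75% to 29.41%.

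**Figure D2:**
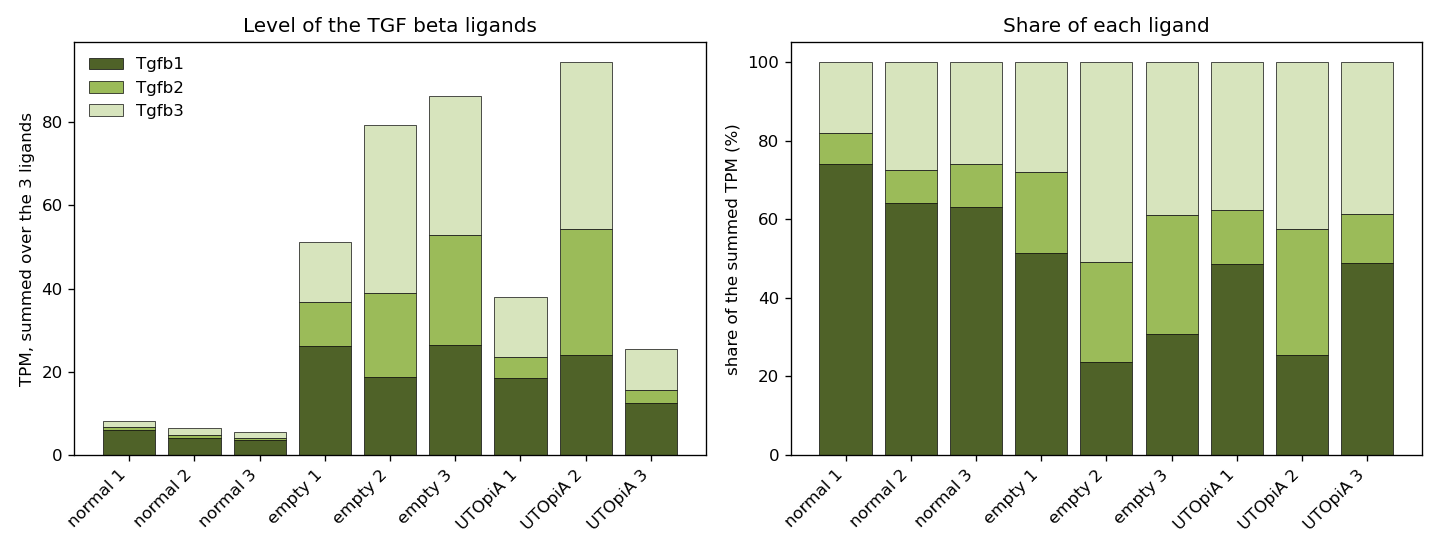
Left, TPM of the 3 TGF-β ligands stacked for each liver; right, the share of each ligand in the summed TPM, in percent. Tgfb1 fills 63.2% to 74.2% of the sum in normal livers and 23.6% to 51.3% in the 6 ACLF livers.

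Pdgfrb encodes the PDGF receptor β, through which stellate cells and pericytes respond to PDGF (ENSRNOG00000018461, chromosome 18, 56364620 to 56406381, plus strand). Its TPM was 2.33, 2.601 and 2.77 in normal livers, 20.3, 12.9 and 30.3 in empty livers and 15.9, 20.8 and 15.8 in UTOpiA livers. The UTOpiA livers lay within the range of the empty livers. The increase on the log2 scale was 2.51 (SE 0.258, edgeR adjusted p = 0.000139) for empty and 2.45 (SE 0.258, edgeR adjusted p = 0.000236) for UTOpiA against normal, so that the 2 estimates differed by less than either standard error.

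Acta2 encodes α-smooth muscle actin, the usual marker of myofibroblasts and also a component of vascular smooth muscle (ENSRNOG00000058039, chromosome 1, 252537615 to 252550394, minus strand). It measured 2.695, 7.10 and 1.502 TPM in normal livers, 26.5, 74.2 and 54.1 in empty livers and 87.8, 146.7 and 45.1 in UTOpiA livers. UTOpiA replicates 1 and 2 exceeded every empty liver, whereas UTOpiA replicate 3 lay between empty replicates 1 and 3. The log2 fold change against normal was 3.25 (SE 0.587, edgeR adjusted p = 0.00231) in empty livers and 4.23 (SE 0.606, edgeR adjusted p = 0.00116) in the UTOpiA group. Normal replicate 2 held more Acta2 than the other normal livers together, and without it the estimates were 4.07 and 5.06.

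Tagln encodes transgelin (SM22α), an actin-binding protein of smooth muscle (ENSRNOG00000017628, chromosome 8, 50222896 to 50231357, minus strand). It was at 6.78, 16.0 and 6.76 TPM in normal livers, 29.9, 146.4 and 75.5 in empty livers and 175.5, 210.0 and 74.3 in UTOpiA livers, and had the highest mean TPM of the 10 genes in each group. As with Acta2, replicate 2 was the highest liver within each of the 3 groups. Its log2 fold change was 2.57 (SE 0.592, edgeR adjusted p = 0.00735) for empty and 3.58 (SE 0.614, edgeR adjusted p = 0.00262) for UTOpiA against normal. Without empty replicate 2 the first was 1.85 (edgeR adjusted p = 0.0156). In the tables Tagln overlaps Sidt2 on the same strand, which held 1822 to 3007 counts per library, so reads in the shared stretch cannot be assigned with certainty.

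Des encodes desmin, the intermediate filament of muscle that also marks rodent stellate cells (ENSRNOG00000019810, chromosome 9, 82556573 to 82564294, plus strand). It measured 0.861, 0.703 and 0.800 TPM in normal livers, 42.8, 12.2 and 26.2 in empty livers and 16.1, 22.9 and 16.2 in UTOpiA livers. The empty livers spread over a wider range than the UTOpiA livers and enclosed them. On the log2 scale Des rose by 4.59 (SE 0.481, edgeR adjusted p = 0.000182) for empty and 4.21 (SE 0.478, edgeR adjusted p = 0.000388) for UTOpiA against normal.

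The 3 cytoskeletal genes did not rank the ACLF livers alike. Acta2 and Tagln were lowest in empty replicate 1, which held the most Des, and both were highest among empty livers in replicate 2, which held the least Des. The ratio of Acta2 to Des TPM was 0.620, 6.10 and 2.07 in the empty livers, 5.46, 6.41 and 2.79 in the UTOpiA livers and 3.13, 10.1 and 1.88 in normal livers. Tagln stayed closer to Acta2, with a Tagln to Acta2 ratio of 1.13 to 2.00 over the 6 ACLF livers and 2.26 to 4.50 in normal livers. These ratios were chosen after the values were seen and carry no test.

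Postn encodes periostin, a matricellular protein that TGF-β induces (ENSRNOG00000012660, chromosome 2, 143656793 to 143688087, plus strand). Normal livers held 1, 0 and 0 counts. The TPM was 21.5, 14.6 and 21.6 in empty livers and 7.04, 26.3 and 4.97 in UTOpiA livers. All 6 ACLF livers were therefore far above the normal livers, which were at or under the detection limit of 3 counts per library. Set against that limit, the group mean of Postn was at least 121-fold higher in empty livers and at least 84-fold higher in UTOpiA livers. Empty replicates 1, 2 and 3 alone gave 143-fold, 93.2-fold and 126-fold. The edgeR adjusted p of 0.000132 and 0.000268 belong to the fitted fold changes, not to these bounds. The UTOpiA bound rested on replicate 2: without it the bound was 47-fold, and replicates 1 and 3 alone gave 49.6-fold and 44.5-fold. Such bounds cover counting error only.

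Lox encodes lysyl oxidase, which cross-links collagen and elastin (ENSRNOG00000014426, chromosome 18, 47500330 to 47577819, minus strand). Its TPM was 0.130, 0.269 and 0.314 in normal livers, 41.1, 12.96 and 69.3 in empty livers and 14.8, 31.1 and 12.5 in UTOpiA livers. Empty replicate 2 was the lowest empty liver and lay among the UTOpiA values. Against normal livers, Lox rose on the log2 scale by 6.86 (SE 0.700, edgeR adjusted p = 0.000184) in empty livers and 5.95 (SE 0.684, edgeR adjusted p = 0.000459) in the UTOpiA group. It overlaps Zfp474 on the opposite strand, which had at most 3 counts in any library.

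Loxl2 encodes a lysyl oxidase family member known from fibrotic matrix (ENSRNOG00000016758, chromosome 15, 51303909 to 51365234, plus strand). It had the smallest change of the 10 genes. Its TPM was 3.78, 3.92 and 3.15 in normal livers, 11.2, 15.3 and 7.05 in empty livers and 13.1, 11.2 and 7.53 in UTOpiA livers. Replicate 3 was the lowest ACLF liver of both groups and still exceeded the highest normal liver. The log2 fold change was 1.13 (SE 0.299, edgeR adjusted p = 0.0120) for empty and 1.22 (SE 0.300, edgeR adjusted p = 0.0111) for UTOpiA against normal. Without empty replicate 2 the first estimate was 0.83, under the 2-fold limit, with an edgeR adjusted p of 0.0336, where 20.4% of genes were called higher.

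**Figure D3:**
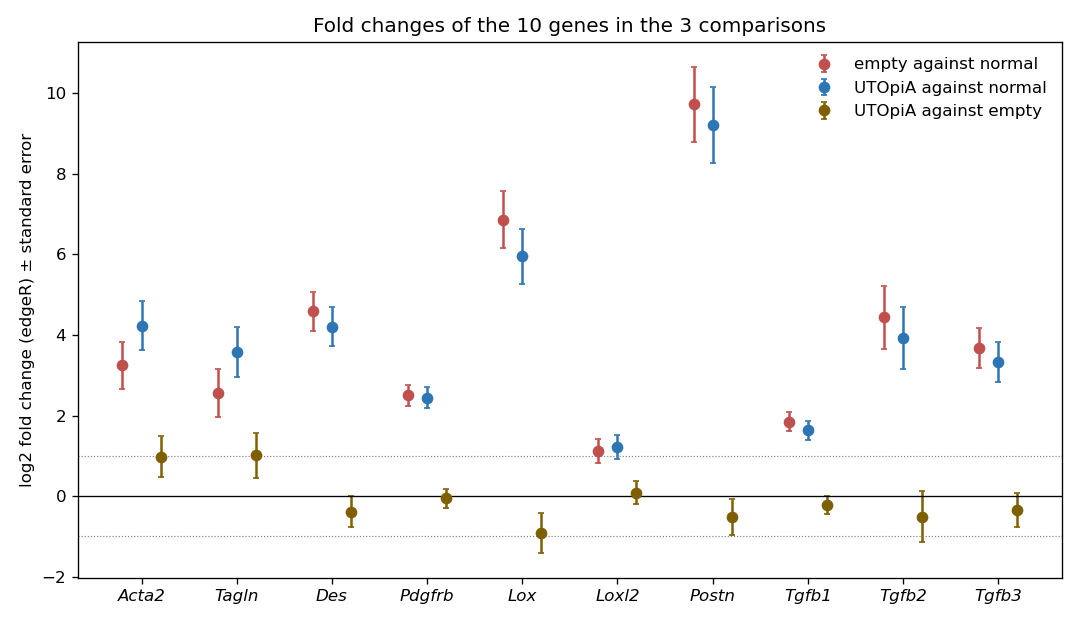
Log2 fold change from edgeR (vertical axis, bars ± SE) of the 10 genes in the 3 comparisons, with dotted lines at the 2-fold limit. The estimates against normal lie above 1 for all 10 genes, those between UTOpiA and empty lie between -0.92 and 1.01, and the Postn points against normal are fitted values that depend on the prior count.

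The order of the genes by mean TPM also changed with disease. In normal livers the order was Tagln, Tgfb1, Acta2, Loxl2, Pdgfrb, Tgfb3, Des, Tgfb2, Lox and Postn, and of the neighbours only Tgfb1 with Acta2 and Acta2 with Loxl2 overlapped over the 3 livers. In the empty group the order was Tagln, Acta2, Lox, Tgfb3, Des, Tgfb1, Pdgfrb, Postn, Tgfb2 and Loxl2, and every pair of neighbours overlapped. Lox moved from the ninth place to the third and Loxl2 from the fourth to the last. In the UTOpiA group Tagln (153.3 ± 70.5 TPM, SD, n = 3) and Acta2 (93.2 ± 51.0) stood above the rest, and the gap from Acta2 to the next gene, Tgfb3 (21.4 ± 16.4), was the only one between neighbours without overlap.

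On TMM-scaled CPM, counts relative to the effective library size, which correct for differences in composition between libraries, the 6 ACLF livers also exceeded the 3 normal livers for each of the 10 genes. Over all genes tested, 32.4% were likewise higher without overlap in empty livers and 30.8% in UTOpiA livers. Relative to the normal mean on the log2 CPM scale, the median of the 10 genes was 2.66, 3.77 and 3.59 in the empty livers and 3.32, 4.09 and 2.81 in the UTOpiA livers. UTOpiA replicate 2 was therefore the highest of the 6 by this measure and empty replicate 1 the lowest.

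**Figure D4:**
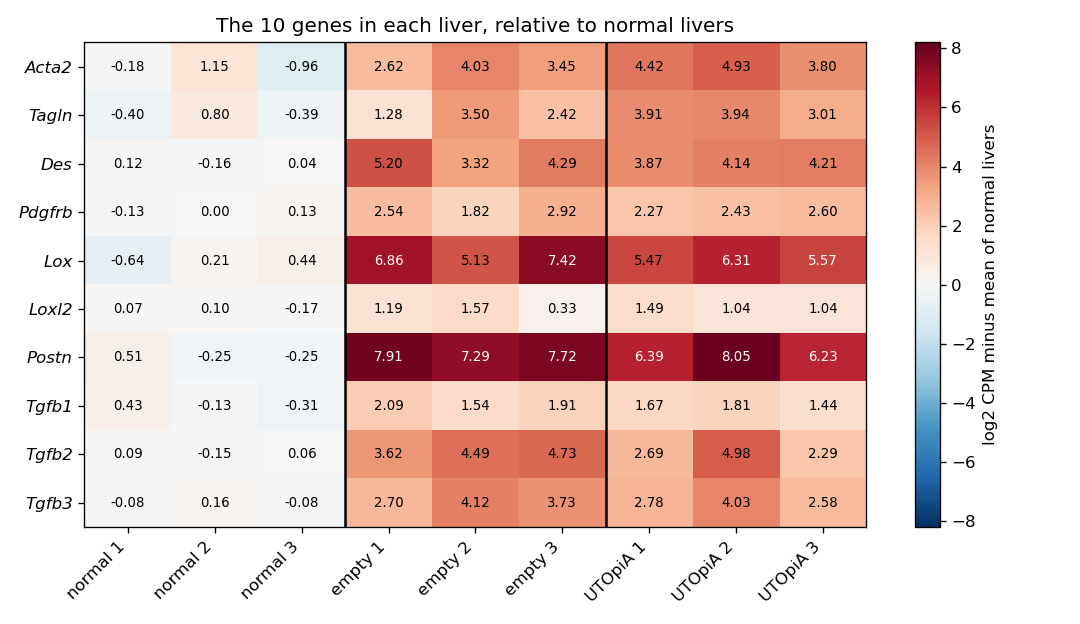
Log2 CPM of each gene in each liver minus its mean over the 3 normal livers (color scale and printed values). Lox and Postn show the deepest color in each ACLF liver, Loxl2 the palest except in empty replicate 2, where it reads 1.57 and Tgfb1 1.54, and in the UTOpiA columns Tgfb2 reads 2.69, 4.98 and 2.29.

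Between UTOpiA and empty, which share BDL, LPS and circulation and differ in the content of the circuit, none of the 10 genes was called by edgeR or DESeq2 with all 9 libraries. Of the 10, 0 had an unadjusted p under 0.05, against 10.3% of all genes tested, and DESeq2 called 0.376% of genes higher and 0.504% lower. The TPM of the 2 groups overlapped for each of the 10 genes, with exact permutation p, two-sided, from 0.2 for Tgfb1 to 0.9 for Loxl2. On TPM, 2.43% of genes tested were higher and 8.62% lower in UTOpiA livers without overlap. On TMM-scaled CPM the shares were 6.15% and 5.97%, so the uneven split depended on the scale, and the 10 genes overlapped there too. Fitted log2 fold changes were above 0 for 3 genes and below 0 for 7, with a median of -0.28. These p-values do not show that the groups were alike, since standard errors reached 0.64.

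Acta2 and Tagln had the highest estimates in this comparison. The log2 fold change of UTOpiA against empty was 0.98 (SE 0.516) for Acta2, with an edgeR adjusted p of 0.549, and 1.01 (SE 0.550) for Tagln, with an edgeR adjusted p of 0.566. Lox had the lowest, at -0.92 (SE 0.500, edgeR adjusted p = 0.566). The remaining estimates were -0.52 for Postn, -0.50 for Tgfb2, -0.38 for Des, -0.35 for Tgfb3, -0.22 for Tgfb1, -0.06 for Pdgfrb and 0.09 for Loxl2.

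Leaving out either library that stood apart changed this comparison. Without UTOpiA replicate 2, Tgfb2 was lower in the UTOpiA group by a log2 fold change of -1.86 (SE 0.318, edgeR adjusted p = 0.0576) and Postn by -1.36 (SE 0.268, edgeR adjusted p = 0.0654). Neither passed the limit in edgeR, and both did in DESeq2, at -1.89 (DESeq2 adjusted p = 6.11e-05) and -1.39 (DESeq2 adjusted p = 0.000378), where 2.45% of genes were called lower. Tgfb3 was then at -0.95 (edgeR adjusted p = 0.214), but at -0.01 without empty replicate 2 (edgeR adjusted p = 0.994). With empty replicate 2 left out, Lox stood at -1.33 (edgeR adjusted p = 0.0862), Tagln at 1.72 (edgeR adjusted p = 0.170), Acta2 at 1.37 (edgeR adjusted p = 0.301) and Des at -0.73 (edgeR adjusted p = 0.207). DESeq2 then called Lox lower (-1.36, adjusted p = 0.00474) and Tagln higher (1.70, adjusted p = 0.0108), where 0.986% of genes were called lower and 2.43% higher. Which members were called thus depended on which library was left out, and no member was called in both fits. Other libraries moved the edgeR estimates toward 0: Lox was at -0.41 without empty replicate 3, Tgfb2 at -0.10 and Postn at -0.21 without UTOpiA replicate 3, and Tagln at 0.62 without empty replicate 1. The DESeq2 fits without a library were chosen after the values were seen.

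The latent complexes and activators of TGF-β were represented by 12 further genes, all tested. Of these, 8 were called higher and 0 lower in empty livers against normal, with a median log2 fold change of 2.40, and 8 were called higher in the UTOpiA group, with a median of 2.20. Over all genes tested, 20.7% were called higher and 11.1% lower for empty and 18.2% higher and 6.81% lower for UTOpiA against normal, the background for this and each list that follows. Ltbp1, a latent TGF-β binding protein, went from 1.49 ± 0.235 TPM in normal livers (SD, n = 3) to 16.4 ± 4.01 in the empty and 14.4 ± 7.32 in the UTOpiA group. Fbn1, the fibrillin to which latent complexes attach, rose by 2.35 on the log2 scale in the empty group (edgeR adjusted p = 6.1e-05). Itgb6, the epithelial integrin subunit that activates latent TGF-β, rose by 7.67 (edgeR adjusted p = 0.000238), from 0.118 ± 0.116 to 35.8 ± 12.7 TPM, and by 8.82 without normal replicate 2. Between UTOpiA and empty 0 of the 12 were called. Itgb8, another activating integrin subunit, had the smallest unadjusted p there, with 4.14, 4.95 and 4.17 TPM in the empty and 0.750, 3.66 and 0.777 TPM in the UTOpiA livers and a log2 fold change of -1.26 (edgeR adjusted p = 0.433). Without UTOpiA replicate 2 the value for Itgb8 was -2.18 and it was called (edgeR adjusted p = 0.0384), as were 0.119% of genes in that direction. DESeq2 in that fit called 3 of the 12 lower, Itgb8 (-2.22), Itgb6 (-1.86) and the activator thrombospondin Thbs1 (-3.21), where 2.45% of genes were called lower.

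Of 5 TGF-β receptor genes, 2 rose in empty livers and 1 rose in UTOpiA livers against normal, with medians of 0.72 and 0.64, where 20.7% and 18.2% of all genes tested were called higher, so that the counts lay near the background. The kinase gene Tgfbr1 rose by 1.00 on the log2 scale in the empty group (edgeR adjusted p = 0.000354), and Acvrl1, an endothelial type I receptor, by 1.35 (edgeR adjusted p = 0.00323). Tgfbr3, which encodes betaglycan, had an estimate of 0.72 (edgeR adjusted p = 0.0171), under the 2-fold limit, and -0.47 between UTOpiA and empty (edgeR adjusted p = 0.469). Tgfbr1 sat at the limit, so that the count was 1 without empty replicate 1 or 2, normal replicate 1 or 2, or UTOpiA replicate 3, while in the UTOpiA group it was 0 without normal replicate 3 or UTOpiA replicate 2.

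Among 12 SMADs and their regulators, 4 were called higher in the empty and 3 in the UTOpiA group against normal, with 0 lower and medians of 0.44 and 0.33, not far from the 20.7% and 18.2% of all genes tested. The feedback inhibitor Pmepa1, itself induced by TGF-β, rose by 3.83 (edgeR adjusted p = 5.1e-05) from 0.936 ± 0.237 to 19.5 ± 6.51 TPM in the empty group. The corepressor Tgif1 rose by 2.52 (edgeR adjusted p = 0.000412), and Smad3, a receptor-activated SMAD, by 1.01 (edgeR adjusted p = 0.00750). Without empty replicate 2 the count in the empty group was 2, under the 20.4% of all genes called higher in that fit. Between UTOpiA and empty 0 were called, and Skil, a SMAD corepressor, had the smallest unadjusted p, with 13.6, 25.1 and 10.5 TPM in the empty and 7.01, 10.2 and 5.79 TPM in the UTOpiA livers (log2 fold change -0.94, edgeR adjusted p = 0.392).

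The 12 tested TGF-β target genes moved in both directions. In the empty group 8 were called higher and 2 lower, and in the UTOpiA group 9 higher and 1 lower, with medians of 3.85 and 2.86. The counts called lower lay near the background of 11.1% and 6.81%, those called higher above that of 20.7% and 18.2%. Col1a1, a chain of type I collagen, rose by 4.21 (edgeR adjusted p = 3e-05), from 2.59 ± 0.663 to 68.3 ± 12.4 TPM in the empty group. Timp1, an inhibitor of matrix metalloproteinases, rose by 6.05 (edgeR adjusted p = 0.000251), or by 5.29 without empty replicate 3. Ccn2, connective tissue growth factor, rose by 5.68 (edgeR adjusted p = 0.000169) and had the smallest unadjusted p of the list between UTOpiA and empty: it measured 53.1, 137.0 and 99.0 TPM in the empty and 21.9, 61.0 and 19.9 TPM in the UTOpiA livers, with a log2 fold change of -1.37 (edgeR adjusted p = 0.396). DESeq2 without UTOpiA replicate 2 called 3 of the list lower, Ccn2 (-1.89), Tnc (-1.94) and Ccn1 (-1.56), where 2.45% of all genes were called lower. DESeq2 without empty replicate 2 called Timp1 lower (-1.32), where 0.986% of all genes were called lower. The 2 genes called lower in the empty group were Nox4, an NADPH oxidase (-2.87, or -3.56 without empty replicate 2), and Snai2, a transcription factor (-1.45). They are named here because they were called against the direction of most of the list. Tgfbi also had an estimate below 0 (-0.89, edgeR adjusted p = 0.0197), under the 2-fold limit. Without normal replicate 3 the count called lower was 1.

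The PDGF ligands and receptor α, 5 genes, were all called higher in the empty group and 4 of them in the UTOpiA group, with medians of 2.00 and 2.54, beside 20.7% and 18.2% of all genes tested. Pdgfb, the ligand of the receptor β, rose by 4.63 in the empty group (edgeR adjusted p = 0.000969) and by 3.79 without empty replicate 2, Pdgfa by 2.00 (edgeR adjusted p = 0.000529) and Pdgfra by 1.93 (edgeR adjusted p = 8.8e-05). Pdgfra measured 15.3, 13.2 and 16.4 TPM in the empty and 7.34, 12.8 and 6.40 TPM in the UTOpiA livers. On TPM the groups did not overlap, yet the log2 fold change of -0.60 was not called (edgeR adjusted p = 0.348). Pdgfrb, by contrast, had an estimate of -0.06 in the same comparison, and the difference between the 2 receptor genes was not tested.

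Contractile and smooth muscle genes other than Acta2, Tagln and Des numbered 14. In the empty group 6 were called higher and in the UTOpiA group 7, with medians of 1.72 and 2.08, or 1.65 and 1.79 with the 2 genes at the detection limit in normal livers set at their bounds. The background called higher was 20.7% and 18.2%. Itga8, an integrin subunit of mesenchymal cells, rose by 4.82 in the empty group (edgeR adjusted p = 5.9e-05), tropomyosin Tpm2 by 2.68 (edgeR adjusted p = 0.000442) and leiomodin Lmod1 by 2.52 (edgeR adjusted p = 0.00147). Cald1, caldesmon, had the smallest unadjusted p of the list between UTOpiA and empty, with an estimate of 0.26 (edgeR adjusted p = 0.693). Myh11 and Cnn1, late smooth muscle markers, were not called in either ACLF group, which does not show that they were unchanged. Their log2 fold changes were 1.24 and 1.70 in the empty and 1.67 and 2.48 in the UTOpiA group, with standard errors from 0.70 to 0.95. Mean TPM was 0.547 and 0.130 in normal, 1.86 and 0.641 in empty and 2.35 and 1.00 in UTOpiA livers.

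Of 13 tested genes of collagen and elastin cross-linking other than Lox and Loxl2, 7 were called higher in each ACLF group and 0 lower, with medians of 1.19 and 1.35, beside 20.7% and 18.2% of all genes tested called higher. Plod2, a lysyl hydroxylase of collagen, rose by 5.24 in the empty group (edgeR adjusted p = 2.4e-05) from 0.479 ± 0.0876 to 26.0 ± 1.31 TPM. The oxidase Loxl1 rose by 5.06 (edgeR adjusted p = 5.5e-05), and the collagen chaperone Serpinh1 by 1.94 (edgeR adjusted p = 0.000197). Between UTOpiA and empty 0 were called, and Bmp1, the procollagen C-proteinase, had the smallest unadjusted p (log2 fold change 0.47, edgeR adjusted p = 0.437). Within the lysyl oxidase family, the estimates for empty against normal thus ran from 6.86 for Lox and 5.06 for Loxl1 to 1.69 for Loxl3, 1.13 for Loxl2 and 0.31 for Loxl4, the last of which was not called (edgeR adjusted p = 0.236).

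**Figure D5:**
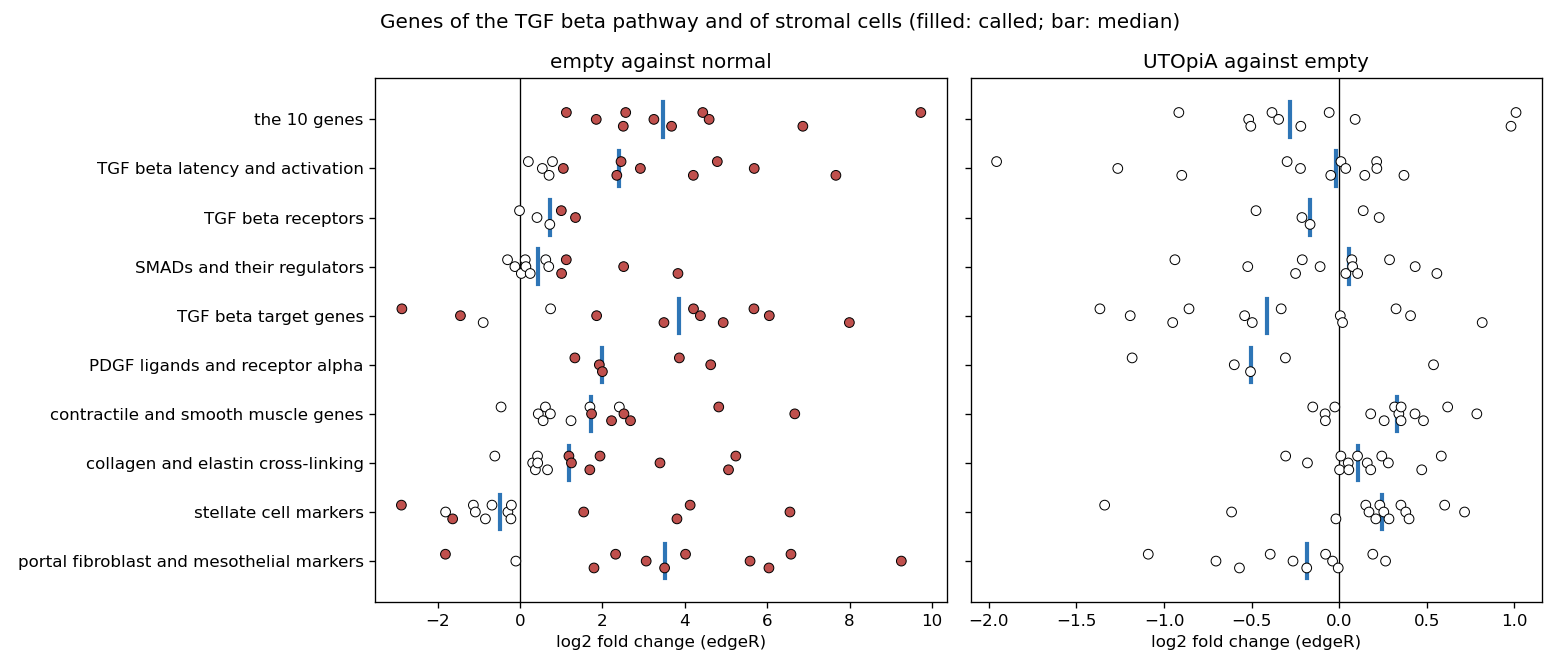
Log2 fold change from edgeR of each tested gene in 10 groups of genes, for empty against normal (left) and UTOpiA against empty (right), with filled points for genes called and a bar at the median. On the left most filled points lie to the right of 0 and on the right 0 points are filled; points of genes at the detection limit in normal livers, such as Postn, are fitted values.

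Markers of the cell types that express these genes were measured alongside. Of 14 tested stellate cell markers, 4 were called higher and 2 lower in the empty group, with a median of -0.49, and 3 were called higher and 2 lower in the UTOpiA group, with a median of -0.21. These counts lay near the background of 20.7% higher and 11.1% lower for empty and 18.2% higher and 6.81% lower for UTOpiA livers. The list was divided. Rgs5, a pericyte gene, rose by 3.81 in the empty group (edgeR adjusted p = 4.2e-05) and Dcn, decorin, by 6.55 (edgeR adjusted p = 0.00202), or 5.94 without empty replicate 1, while Ecm1 fell by 1.64 (edgeR adjusted p = 0.00116). Lrat, the retinol-esterifying enzyme of quiescent stellate cells, was chosen after its values were seen: it measured 13.4, 12.7 and 13.7 TPM in normal, 7.90, 14.5 and 3.12 TPM in empty and 13.3, 7.36 and 12.3 TPM in UTOpiA livers, and was not called (log2 fold change -1.13, edgeR adjusted p = 0.103). Without empty replicate 2, 5 markers were called lower in empty livers against normal, as were 12.3% of genes tested, and Colec10, a collectin of stellate cells, was called higher in the UTOpiA than in the empty group (2.14, edgeR adjusted p = 0.0478), as were 0.181% of genes in that direction. DESeq2 in that fit called Colec10 higher (2.12) and Dcn lower (-1.89), where 2.43% of all genes were called higher and 0.986% lower. The summed TPM of the list was 365 to 465 in normal livers, 742 to 1064 in the empty and 525 to 989 in the UTOpiA group. Without Dcn and Rgs5, left out after their values were seen, the sums overlapped, at 354 to 456, 345 to 577 and 362 to 570 TPM.

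Of 11 tested portal fibroblast and mesothelial markers, 9 were called higher and 1 lower in each ACLF group, beside 20.7% and 18.2% of all genes called higher and 11.1% and 6.81% lower, so that the count called lower lay near the background. The medians were 3.51 in the empty and 3.62 in the UTOpiA group, or 3.25 and 2.82 with the 2 genes at the detection limit set at their bounds. Msln, the mesothelial protein mesothelin, rose by 9.25 in the empty group (edgeR adjusted p = 6.9e-05), from 0.524 ± 0.393 to 471 ± 191 TPM, Cd34 by 3.51 (edgeR adjusted p = 0.000374) and Clec3b, tetranectin, by 5.58 (edgeR adjusted p = 0.000470). Without normal replicate 2 the estimates were 10.02 for Msln and 8.09 for Clec3b. DESeq2 without UTOpiA replicate 2 called Msln (-1.62) and Fbln1 (-1.30) lower in UTOpiA than in empty livers, as were 2.45% of all genes. The summed TPM of the list was 315 to 560 in normal, 600 to 923 in empty and 274 to 596 in UTOpiA livers, with Mfap4 listed at 0 in all 9 livers. Dpt, dermatopontin, was the marker called lower and made up 304 to 554 TPM of the sum in normal livers. Without it the list summed to 5.31 to 10.4 TPM in normal, 438 to 800 in empty and 109 to 494 in UTOpiA livers.

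Markers of other cells moved with the same contrast, and their part in the results was not tested. The background is again 20.7% higher and 11.1% lower for empty and 18.2% higher and 6.81% lower for UTOpiA livers. Cholangiocyte markers, 7 tested, were all called higher in both ACLF groups, with summed TPM of 14.7 to 24.8 in normal, 323 to 670 in empty and 134 to 426 in UTOpiA livers. Macrophage markers summed to 265 to 326, 1066 to 1826 and 554 to 1995 TPM in the same order, with 6 of 7 called higher in both groups. All 5 tested neutrophil markers, of 8 listed, were called higher in both groups, and 4 of 6 lymphocyte markers. Markers almost without counts in normal livers, such as Cxcr2 with 0, could enter the test only through their counts in diseased livers. Their calls as higher were therefore largely set by the count filter. Hepatocyte markers summed to 174600 to 192300 TPM in normal livers and to 84520 to 122200 in ACLF livers, with 4 of 10 called lower in the empty and 3 in the UTOpiA group and 2 called higher in both, the latter near the background. Alb carried the fall of this sum: without it the other 9 genes summed to 58800 to 67600 TPM in normal, 71700 to 87000 in empty and 82100 to 95300 in UTOpiA livers, and Hpx and Fga, acute phase genes, were the 2 called higher. Of 7 endothelial markers, 2 were called higher and 1 lower in each group, near the background. No gene of these lists was called between UTOpiA and empty with all 9 libraries. DESeq2 without UTOpiA replicate 2 called the cholangiocyte genes Krt7 (-1.24) and Sox9 (-1.67) lower, as were 2.45% of all genes. Without empty replicate 2 it called the endothelial gene Stab2 (1.86) and the hepatocyte gene Ttr (1.23) higher, as were 2.43% of all genes.

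The pattern of Acta2 over the 9 livers was compared with that of 12854 genes of at least 1 TPM on average, by the root mean square difference of log2 CPM after centring each gene on its mean. Among the 5 nearest genes were Kitlg (0.495), Ephb3 (0.496), Tagln (0.528) and S100b (0.530). Tgfb3 was the next of the 10 genes, at rank 76 (0.791), and Des was at rank 606 (1.13). Kitlg, the ligand of the receptor KIT, measured 2.76, 7.98 and 3.90 TPM in the empty and 4.32, 7.95 and 2.22 TPM in the UTOpiA livers, highest in replicate 2 of both groups. The genes nearest to Tgfb1 were Lmbr1l (0.123), Plcd1 (0.150), Tcf21 (0.155), RGD1309104 (0.1601) and Laptm5 (0.163), and of the 10 genes Pdgfrb came nearest, at rank 786 (0.475), then Loxl2 at rank 1258 (0.547). Tcf21 encodes a transcription factor of mesenchymal cells including stellate cells, and Laptm5 a lysosomal protein of leukocytes. Acta2 and Tgfb1 stood 1.33 apart by this measure, which also grows with differences in the size of change. These likenesses describe 9 livers, of which 6 share BDL, LPS and circulation, and carry no test.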

How the data were processed

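Liver RNA of 9 rats was compared in 3 groups taken from the sample labels. The labels name poly(A) selection and directional library kits, with Trimmomatic, HISAT2 and featureCounts and the build rn6 in the submitters' processing notes, whereas the methods name Cutadapt and the mouse build GRCm38. Gene positions are those of the deposited tables, which name no build, and the strand setting is not given in the sources used here. The authors deposited raw counts of uniquely mapped reads per gene, and TPM, which the authors scaled by gene length and to a common total per library.

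The members and all lists were chosen with earlier results of these data known. Counts were analysed in R 4.3.3 with edgeR 4.0.16: filterByExpr on the groups, TMM, and a robust two-sided quasi-likelihood fit of all 9 libraries. Log2 CPM used a prior count of 2. Standard errors were derived from the log2 fold change and its F statistic. Alternatives were DESeq2 1.42.0, limma 3.58.1 on log2(TPM + 1) or log2(TPM + 0.1), keeping genes that averaged 1 TPM or more, or all, median-of-ratios scaling, other count filters, the 6 libraries compared, a replicate block and each library left out. DESeq2 fits with an ACLF library left out were chosen after seeing the data. The tests were tried on simulated data with far fewer changed genes than in these livers, so the trial does not bear on the results given here. On the TPM scale ACLF livers shift as a whole: 65.1% of calls for empty against normal were higher by edgeR and 82.3% by limma, with a median over all genes of 0.44 on that log2 scale. From each list the text names the 3 genes with the smallest p for empty against normal and that with the smallest p for UTOpiA against empty; other genes it names were chosen after their values were seen. Col1a2, Pecam1 and Timd4 were not analysed here, and 1 of the 5 genes nearest to Acta2 and the edited genes of the organoids are not reported here. The rats are separate animals by their labels as biological replicates.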

Additional observations from a re-analysis of the deposited data

How the results depend on the processing

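With at least 10 counts in every library, Lox and Postn were not tested and the other 8 genes were called higher in both ACLF groups than in normal livers. Over all genes with that filter, 14.5% were called higher in empty and 12.2% in UTOpiA livers. In every other alternative all 10 genes stayed called in the UTOpiA group, and in the empty group too except without empty replicate 2. There 9 were called in edgeR and in DESeq2, since Loxl2 fell to 0.83 and 0.84, and 20.4% and 21.1% of all genes were called higher. Between UTOpiA and empty the count of the 10 genes called was 0 in edgeR and limma and 0 to 2 in DESeq2 with 1 library left out. The 2 without empty replicate 2 were Tagln and Lox, where 2.43% of all genes were called higher and 0.986% lower. The 2 without UTOpiA replicate 2 were Postn and Tgfb2, where 2.45% of all genes were called lower. The cause was not tested.

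Near-zero log2 estimates for UTOpiA against empty changed sign with single libraries left out. Des ranged from -0.73 to 0.20 (0.17 in DESeq2 without empty replicate 1), Pdgfrb from -0.30 to 0.22, with 0.00188 without UTOpiA replicate 1 (0.20 in DESeq2 without empty replicate 3), and Loxl2 from -0.19 to 0.39, with -0.09 without UTOpiA replicate 1 (-0.20 and -0.10 in DESeq2 without empty replicate 3 and UTOpiA replicate 1). In limma Loxl2 was at -0.0418 on log2(TPM + 1), with and without filter, and at -0.0428 on log2(TPM + 0.1). The TPM difference ranged from -7.76 to 0.935 for Pdgfrb and from -2.64 to 1.49 for Loxl2. In percentage points, the share of Tgfb1 differed by -0.04167 to 13.8 and that of Tgfb3 by -5.225 to 6.19.

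Replicate numbers did not pair the samples: same-numbered empty and UTOpiA livers had correlations of deviations of -0.144, -0.183 and -0.147, and no empty liver correlated best with the UTOpiA liver of its own number. With the replicate block 10, 10 and 0 of the 10 genes were called in the 3 comparisons. Over all genes tested in that fit, 19.5% were called higher in empty and 16.6% in UTOpiA livers against normal. Between UTOpiA and empty Acta2 was then at 0.99 (edgeR adjusted p = 0.460) and Tagln at 1.20 (edgeR adjusted p = 0.474), and 0.0% of all genes were called. With 3 livers per group and SDs of up to 117% of the mean TPM in ACLF livers (Tgfb2, UTOpiA), standard errors between the ACLF groups ran from 0.217 for Tgfb1 to 0.636 for Tgfb2 on the log2 scale, which limits what this comparison could detect.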
